A study of Rattus norvegicus with 8 samples.

Results

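The genes described here are 10 signals and receptors of blood vessels that set vascular tone or carry adenosine and adrenomedullin messages: Adora2a, Adora1, Adora2b, Rgs4, Rgs5, Gja1, Ramp2, Calcrl, Adm and Ptprb. Every probe set was taken whose platform annotation names exactly 1 gene and that gene is on this list. This gave 17 probe sets of the 31042 that are not hybridisation controls, and 10 genes of the 14217 with a probe set of their own. The list was chosen by way of earlier results of this same comparison of diets, in which an Adora2a probe set had stood out, so differences between the diets are given as a description, and counts of these genes past a threshold support nothing. Livers came from male rats of the outbred Sprague-Dawley strain, killed at 7 weeks of age after 1.5 h of feeding. The iron-deficient group (4 arrays) ate a purified AIN93G-type diet from which ferric citrate had been left out, and the control group (4 arrays) ate the same diet with it, both in the version where Avicel replaced cellulose. Day 17 of the deficient diet was the day of sampling, when that group's blood hemoglobin stood at 42% of the control level. The labels give 7 rats on the deficient and 6 on the control diet, 1 array per liver, without saying which animals were hybridised.

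Adenosine is released when cells run short of oxygen or energy, and it acts on receptors coupled to G proteins. The A1 receptor lowers cyclic AMP through inhibitory G proteins, whereas the A2A and A2B receptors raise it and relax vascular smooth muscle. Adrenomedullin is a vasodilator peptide whose receptor forms when the calcitonin receptor-like receptor pairs with a RAMP accessory protein, and its gene is a known target of hypoxia-inducible factor. In the liver these signals meet at the sinusoid, where endothelial cells and the pericyte-like stellate cells govern flow. Whole liver was measured, so a change in the number of cells of a type and a change in RNA per cell cannot be told apart.

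Hypoxia-inducible factor binds DNA at the core letters ACGTG or GCGTG, and the stretches before the start sites are shown because several of these genes are known to answer to low oxygen. The RefSeq promoter table for rat build GRCr8 held 7 of the 10 genes, and the 250 bases before the start of each were searched on both strands for ACGTG and GCGTG. A match was present in 3 of the 7, Adora2b, Rgs4 and Gja1, and in 36.7% of all 33469 promoters of the same length. Capitals mark the matched letters, which read CACGC in Adora2b, GCGTG in Rgs4 and CACGT in Gja1, the first and last of these being the motifs read on the opposite strand. No 2 matches overlapped. Adm is shown beside them as a promoter in which neither word occurs in this window.
Adora2b, chr10:47439462-47439711, + strand: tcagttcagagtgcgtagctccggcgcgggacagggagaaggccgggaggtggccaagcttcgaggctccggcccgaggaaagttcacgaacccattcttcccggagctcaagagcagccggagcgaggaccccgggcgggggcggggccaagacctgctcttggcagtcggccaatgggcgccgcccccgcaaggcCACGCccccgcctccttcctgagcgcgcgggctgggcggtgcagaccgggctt
Rgs4, chr13:84475885-84476134, - strand: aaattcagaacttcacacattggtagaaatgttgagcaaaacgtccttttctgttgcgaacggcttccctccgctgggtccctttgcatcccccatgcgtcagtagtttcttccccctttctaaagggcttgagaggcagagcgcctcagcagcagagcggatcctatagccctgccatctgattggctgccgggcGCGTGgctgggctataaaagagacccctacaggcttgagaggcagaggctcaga
Gja1, chr20:36302314-36302563, + strand: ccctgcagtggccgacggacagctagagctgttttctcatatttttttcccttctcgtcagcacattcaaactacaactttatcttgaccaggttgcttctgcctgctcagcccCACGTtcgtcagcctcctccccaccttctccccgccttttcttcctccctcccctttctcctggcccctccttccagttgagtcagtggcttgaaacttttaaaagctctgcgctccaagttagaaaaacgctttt
Adm, chr1:174179950-174180199, + strand: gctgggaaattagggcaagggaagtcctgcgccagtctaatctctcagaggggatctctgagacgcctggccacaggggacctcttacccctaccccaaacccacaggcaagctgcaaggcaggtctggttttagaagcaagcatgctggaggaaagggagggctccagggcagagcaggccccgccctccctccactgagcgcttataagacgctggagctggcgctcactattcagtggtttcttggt
The match began 53 bases before the start in Adora2b, 54 in Rgs4 and 136 in Gja1. It describes letters in a window and not a bound site.

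Values are as deposited on a log2 scale, on which arrays differ by very small amounts, more so in some probe sets than in others for reasons the sources do not give. The median within-group SD over all probe sets was 7.82e-06. No difference is read as a fold change, and no difference in deposited units is set against that of another probe set. Probe sets are compared only by overlap of the groups, standardised difference or moderated t, all of which change with the scaling. Levels are added up over probe sets for marker lists only, where a sum follows whichever probe sets vary most on this scale. Differences are given with their SE from limma or as a standardised difference, expressed in SDs within the diets. Of measured hepatocyte markers, 0 of 16 lay below the 25th percentile of probe set means (6.55). The same held for 0 of 17 endothelial and 1 of 15 Kupffer cell and macrophage markers, so this does not test the tissue label.

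As deposited, the A2A receptor gene, the RGS genes, 2 of 3 Gja1 probe sets, the adrenomedullin receptor partner Ramp2 and the endothelial phosphatase Ptprb had higher means in iron-deficient than in control livers, though the groups overlapped for Rgs5. Adora2b, Calcrl and Adm also had higher means, with overlap for Adora2b and Calcrl. Some of these signs turned under other scalings, as given for each gene below. The A1 receptor gene did not separate the diets. The mean was higher in iron-deficient livers for 15 of the 17 probe sets and lower for 2. All 4 iron-deficient arrays lay above all 4 control arrays for 10 probe sets, and below them for 0. Over all probe sets 3.07% were higher and 3.41% lower without overlap. As deposited, the median standardised difference was 2.85 over the 17 and -0.0105 over all probe sets. The count of 10 fell to 6 under quantile normalization, to 5 under a Hamp-free quantile normalization, in which the widely varying probe set of the hepcidin gene Hamp was removed first, and to 4 under median centring, where 4.83%, 0.883% and 0.409% of all probe sets were higher without overlap. With 1 array left out it was from 10 to 12, where 4.05% to 6.56% of all probe sets were higher without overlap. The median standardised difference over the 17 was 1.5 under quantile normalization (12 means higher and 5 lower), 1.21 under the Hamp-free one (10 higher, 6 lower and 1 equal) and 1.2 under median centring (17 higher). Over all probe sets the median difference was -2.81e-08 as deposited. It was 0 under quantile normalization, -3.43e-05 under the Hamp-free one and 5.06e-05 under median centring. Median centring shifts all probe sets alike, so the 17 higher means and every centred difference given below carry this common shift. In the limma fit over all features, 1 of the 17, an Adora2a probe set, had an adjusted p under 0.05, where 0.0322% of all probe sets did. The count was 5 under quantile normalization (3.52% of all probe sets), 3 under the Hamp-free one (0.267%), 3 under median centring (0.203%) and 0 with the replicate number as a block. It was 0 without iron-deficient replicates 1, 2 or 4 or control replicates 2 or 3, 1 without control replicates 1 or 4 and 2 without iron-deficient replicate 3, where 0.0129% to 0.087% of all probe sets did. Since the genes were picked from this contrast, nothing is read from any of these counts.

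**Figure D1:**
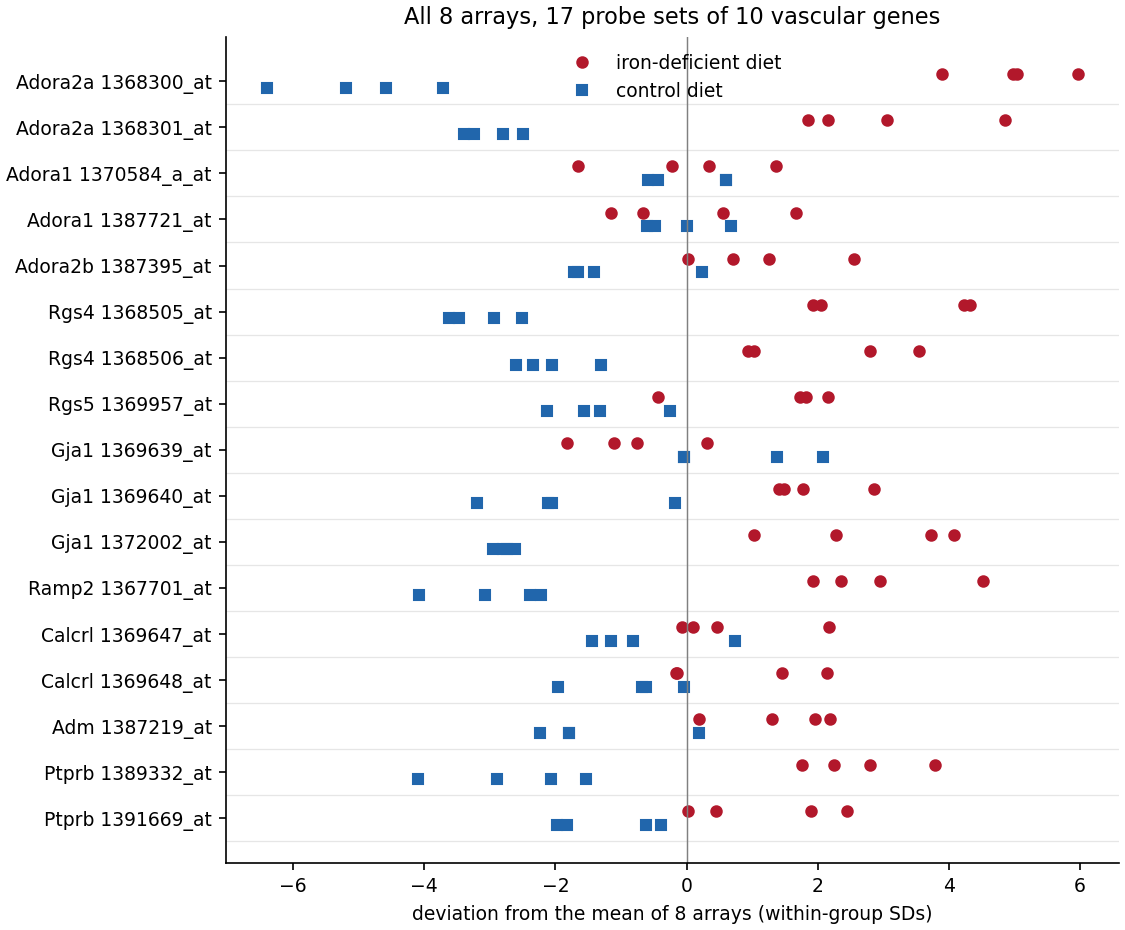
All 8 arrays for each of the 17 probe sets, as the deviation from the mean of the 8 arrays in within-group SDs (x axis), with iron-deficient arrays as circles above control arrays as squares. The groups are widest apart for Adora2a probe set 1368300_at, they mix for Adora1, and in 10 probe sets every circle lies to the right of every square.

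Adora2a encodes the A2A adenosine receptor, which raises cyclic AMP in vessel wall and immune cells. Its probe set 1368300_at read 7.2923, 7.2923, 7.2918 and 7.2928 in iron-deficient livers, against 7.2869, 7.2877, 7.2875 and 7.2882 in control livers. The lowest iron-deficient array stood 0.00361 above the highest control array, a gap wider than the range of either diet. The difference was 0.00472 ± 0.000321 (SE, n = 4 per group), or 9.94 within-group SDs, and 6.24 under median centring. The second probe set, 1368301_at, read 7.440275, 7.440269, 7.440267 and 7.440287 in iron-deficient livers, against 7.440232, 7.440236, 7.440233 and 7.440238 in control livers. It too had no overlap, with a difference of 3.97e-05 ± 4.56e-06 (SE) and 5.95 within-group SDs, but its difference was -3.07e-05 under quantile normalization and -0.000125 under the Hamp-free one, and 9.03e-05 under median centring. In both probe sets iron-deficient replicate 4 was the highest and replicate 3 the lowest of its group.

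Adora2b encodes the A2B receptor, which needs more adenosine for activation and is known as a hypoxia-inducible gene. It read 7.04507, 7.04491, 7.04549 and 7.04520 in iron-deficient livers, against 7.04453, 7.04459, 7.04451 and 7.04496 in control livers. The groups overlapped through control replicate 4, which lay above iron-deficient replicate 2. The difference was 0.000521 ± 0.000155 (SE, n = 4 per group), or 2.27 within-group SDs (1.35 under median centring), and its sign held under each scaling and with each array left out. Adora1 encodes the A1 receptor and had probe sets 1370584_a_at and 1387721_at. The first ranged from 6.725276 to 6.725335 in iron-deficient livers, against 6.725297 to 6.725320 in control livers. The second ranged from 7.753576 to 7.753622 in iron-deficient livers, against 7.753585 to 7.753606 in control livers. In both, the control arrays lay inside the range of the iron-deficient arrays. The standardised differences were -0.0781 and 0.209. The sign of the first turned under median centring and without iron-deficient replicate 2 or control replicates 1 or 3, and that of the second turned under both quantile normalizations and without iron-deficient replicate 4.

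The RGS proteins speed the shutdown of G protein alpha subunits and so shorten the signal of receptors for constrictors. Rgs4, best known from heart, brain and smooth muscle, had probe set 1368505_at at 6.711, 6.731, 6.712 and 6.731 in iron-deficient livers, against 6.669, 6.663, 6.664 and 6.672 in control livers. The iron-deficient arrays were all higher and fell into a lower pair, replicates 1 and 3, and an upper pair, replicates 2 and 4. The difference was 0.0542 ± 0.00585 (SE, n = 4 per group), or 6.26 within-group SDs. Probe set 1368506_at read 6.50427, 6.50520, 6.50432 and 6.50557 in iron-deficient livers, against 6.50278, 6.50251, 6.50263 and 6.50315 in control livers. It showed the same pairs and no overlap between the diets, with a difference of 0.00207 ± 0.000337 (SE) and 4.15 within-group SDs. Its mean lies below the 25th percentile of all probe sets, and that of 1368505_at at percentile 32.2. Signal above background was not tested for either, nor for any other probe set. The sign held for both Rgs4 probe sets under each scaling and with each array left out.

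Rgs5 marks pericytes and vascular smooth muscle. It read 7.1549, 7.1552, 7.1530 and 7.1548 in iron-deficient livers, against 7.1515, 7.1522, 7.1520 and 7.1531 in control livers. Iron-deficient replicate 3 fell below control replicate 4, and the other 3 iron-deficient arrays lay above every control array. The difference was 0.00226 ± 0.000583 (SE, n = 4 per group), or 2.63 within-group SDs, and its sign held under each scaling and with each array left out.

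Gja1 encodes the connexin Cx43, a gap junction protein that joins vascular, stellate and many other cells, and its 3 probe sets did not read alike. Probe set 1372002_at read 9.4357, 9.4348, 9.4340 and 9.4359 in iron-deficient livers, against 9.4317, 9.4317, 9.4318 and 9.4316 in control livers. The control arrays were tightly grouped and the iron-deficient arrays spread widely above them, with a difference of 0.00337 ± 0.00041 (SE, n = 4 per group) and 5.55 within-group SDs. Probe set 1369640_at read 6.709439, 6.709443, 6.709438 and 6.709458 in iron-deficient livers, against 6.709416, 6.709374, 6.709389 and 6.709390 in control livers. It also had no overlap, at 5.22e-05 ± 9.42e-06 (SE), but its difference was -7.17e-05 under either quantile normalization and 0.000103 under median centring. Probe set 1369639_at differed by -4.46e-06 ± 2.03e-06 (SE), with overlapping groups, a mean below the 25th percentile of all probe sets and the opposite sign under median centring.

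Ramp2 encodes the accessory protein that carries the calcitonin receptor-like receptor to the cell surface and makes it a receptor for adrenomedullin. It read 8.56228, 8.56197, 8.56202 and 8.56209 in iron-deficient livers, against 8.56137, 8.56125, 8.56147 and 8.56145 in control livers. All iron-deficient arrays were higher, by 0.000704 ± 8.12e-05 on average (SE, n = 4 per group), or 5.86 within-group SDs. The sign was kept under each scaling and with each array left out, at 3.56 within-group SDs under quantile normalization, 3.49 under the Hamp-free one and 2.19 under median centring. Its partner Calcrl, the receptor itself, separated the diets less. Probe set 1369648_at read 7.38199, 7.38265, 7.38198 and 7.38293 in iron-deficient livers, against 7.38203, 7.38177, 7.38125 and 7.38179 in control livers. Replicates 2 and 4 were the high iron-deficient arrays, whereas 1 and 3 lay just below control replicate 1. The difference was 0.000678 ± 0.000278 (SE), or 1.65 within-group SDs. Probe set 1369647_at differed by 0.000931 ± 0.000472 (SE), or 0.000582 without iron-deficient replicate 4, with overlapping groups, the same 2 high iron-deficient arrays and a mean below the 25th percentile of all probe sets.

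Adm encodes adrenomedullin. Its probe set read 7.101310, 7.101318, 7.101315 and 7.101319 in iron-deficient livers, against 7.101301, 7.101299, 7.101301 and 7.101310 in control livers. Iron-deficient replicate 1 and control replicate 4 were 7.5e-08 apart, so the groups touched without overlapping. The difference was 1.29e-05 ± 3.13e-06 (SE, n = 4 per group), or 2.85 within-group SDs. It was 5.32e-05 under quantile normalization (0.266 SDs), 6.35e-05 under median centring (0.211 SDs) and -3.54e-06 under Hamp-free quantile normalization.

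Ptprb encodes VE-PTP, a receptor phosphatase of endothelial cells that acts on the angiopoietin receptor Tie2 and on junctions. Probe set 1389332_at read 9.50734, 9.50726, 9.50728 and 9.50730 in iron-deficient livers, against 9.50709, 9.50714, 9.50712 and 9.50705 in control livers. The groups did not overlap, with a difference of 0.000193 ± 2.46e-05 (SE, n = 4 per group) and 5.3 within-group SDs, but the difference was 0 under Hamp-free quantile normalization, and 0.593 SDs under quantile normalization and 0.837 SDs under median centring. Probe set 1391669_at read 8.27843, 8.27831, 8.27834 and 8.27847 in iron-deficient livers, against 8.27819, 8.27827, 8.27829 and 8.27820 in control livers. It had no overlap by a narrow margin of 2.47e-05 and a difference of 0.00015 ± 4.21e-05 (SE), or 2.4 within-group SDs. Its sign was kept under each scaling, at 1.5 SDs under quantile normalization, 0.975 SDs under the Hamp-free one and 0.618 SDs under median centring, where the differences were 0.000303, 0.000169 and 2e-04.

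**Figure D2:**
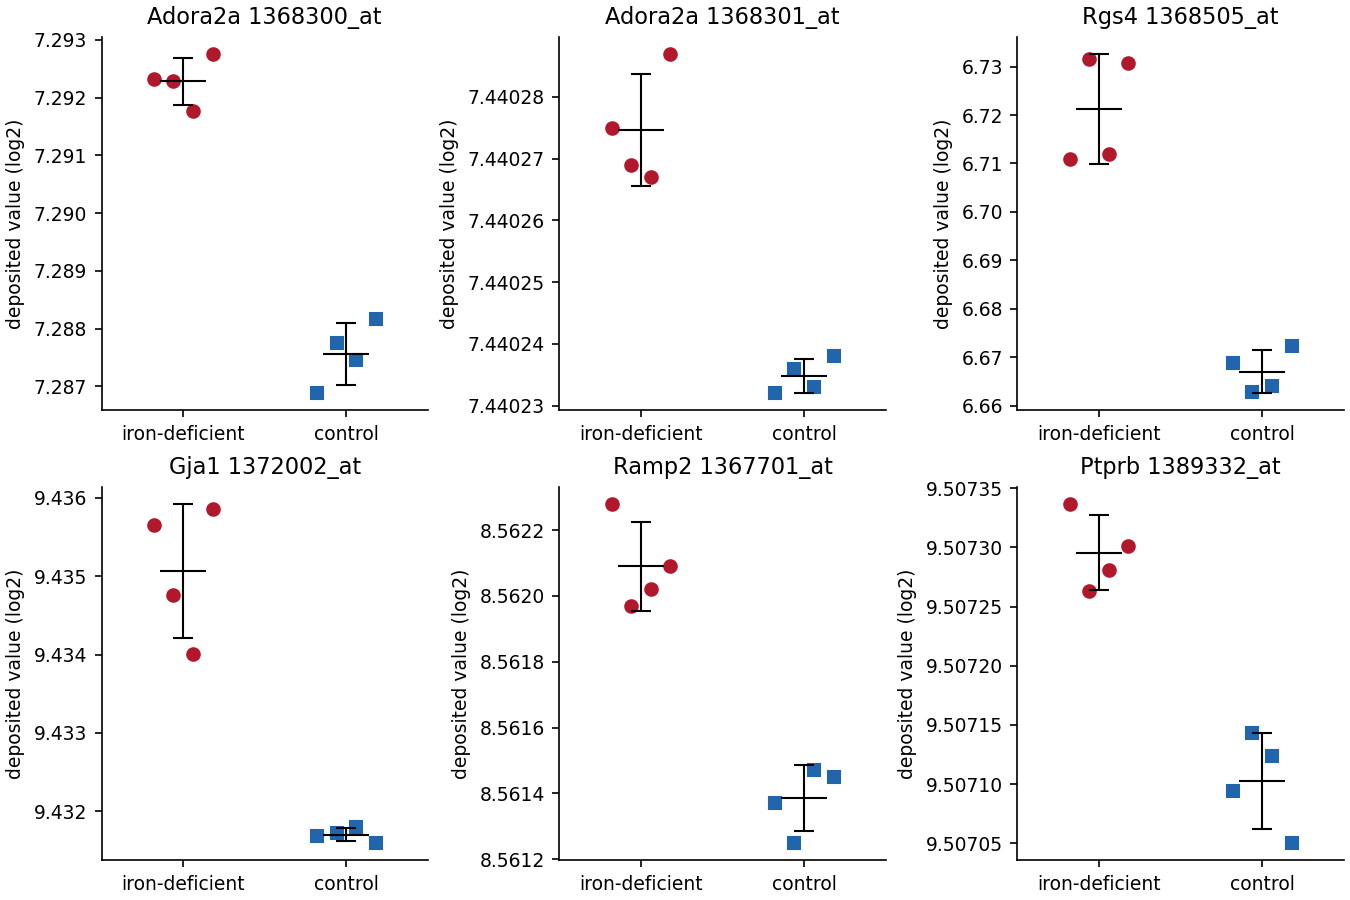
Deposited log2 values (y axes, each panel with its own range that does not start at 0) of 6 probe sets of Adora2a, Rgs4, Gja1, Ramp2 and Ptprb, with iron-deficient arrays left of control arrays, 4 each; bars are the mean ± SD. The panels show both Adora2a probe sets and, for each other gene, the probe set with the largest standardised difference. In every panel the 4 iron-deficient arrays lie above the 4 control arrays, which this choice of panels favours. Gja1 probe set 1369639_at, not shown, had overlapping groups. Rgs4 shows its iron-deficient arrays in pairs.

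No marker of the vessel wall cells passed in limma. Of 17 measured endothelial markers, 12 had the higher and 5 the lower mean in iron-deficient livers, and 8 were higher without overlap, as were 3.42% of all genes. Their summed level was 146.1745 to 146.1778 in iron-deficient livers, against 146.1698 to 146.1710 in control livers, and 0 of the 17 lay below the 25th percentile. Of 22 stellate cell, pericyte and smooth muscle markers, 16 had the higher and 6 the lower mean, and 5 were higher without overlap, with 4 below the 25th percentile. Their summed level was 169.7179 to 169.7463 in iron-deficient livers, against 169.7088 to 169.7136 in control livers. These sums stayed apart under quantile normalization, with 14 of 17 and 15 of 22 means higher, but overlapped under the Hamp-free one, with 10 and 14 means higher, and under median centring, with 16 and 22. Separation under quantile normalization was not particular to vessel wall markers. The hepatocyte marker sum, which overlapped as deposited, was also higher there without overlap, with 16 of 16 means higher. Sums of Kupffer cell and macrophage, cholangiocyte, lymphocyte, neutrophil and red cell markers were not. An unadjusted p under 0.05 was found for 8 endothelial and 9 stellate cell, pericyte and smooth muscle markers, as for 13.2% of all genes. Kupffer cell and macrophage markers had 14 of 15 means higher and 2 genes without overlap, and lymphocyte markers 10 of 17 means higher and 0 genes without overlap. Under Hamp-free quantile normalization 5 Kupffer cell and macrophage means were higher and 9 lower, and 4 lymphocyte means were higher and 13 lower. The part of these cell types in the differences of Adora2a, Rgs4, Rgs5, Gja1, Ramp2 and Ptprb was not tested.

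Genes that act with these signals were read from 7 lists that leave out the 10 genes, each gene represented by whichever of its probe sets had the highest mean. Of 133 measured genes of 159 listed, 0 passed in limma over all probe sets, and 22 (16.5%) had an unadjusted p under 0.05, against 13.2% of all 14217 genes. Of the genes as a whole 0.0422% passed the adjusted threshold. Of the 133, 15 (11.3%) were higher and 1 (0.752%) lower without overlap, against 3.42% and 4.4% of all genes. The median standardised difference of the lists lay between -0.0661 and 0.518, and that over all genes was -0.0727. Counts of higher means depended on the scaling: over the 3 scalings tried they ran from 5 to 15 of 18 for adenosine handling, 5 to 9 of 10 for adrenomedullin partners, 8 to 13 of 14 for the RGS family, 5 to 10 of 10 for connexins, 6 to 12 of 12 for Tie2 partners, 9 to 34 of 36 for vasodilators and 10 to 31 of 33 for vasoconstrictors. Tek, Tie1 and Kdr are also among the endothelial markers, and Kcnj8 and Abcc9 among those of stellate cells and pericytes.

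Adenosine formation, uptake and breakdown had 9 of 18 measured genes with the higher mean, and a median standardised difference of 0.1. Slc28a2, a concentrative nucleoside transporter that brings adenosine into cells, read 8.68060, 8.68051, 8.68057 and 8.68057 in iron-deficient livers, against 8.68037, 8.68042, 8.68035 and 8.68038 in control livers. It had no overlap and differed by 0.000181 ± 2.25e-05 (SE, n = 4 per group, limma adjusted p = 0.0735), or by 0.000934 under quantile normalization and 0.00071 under the Hamp-free one. Enpp1, an ectoenzyme that splits nucleotides, differed by -0.000141 ± 5.87e-05 (limma adjusted p = 0.437), and turned to 3.47e-05 under quantile normalization.

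Among the adrenomedullin and calcitonin family partners 5 of 10 had the higher mean, with a median standardised difference of 0.00299. Of the 10, 4 were higher without overlap, as were 3.42% of all genes. Ackr3, a scavenging receptor for chemokines and adrenomedullin, read 7.027, 6.999, 6.992 and 6.984 in iron-deficient livers, against 6.950, 6.952, 6.954 and 6.946 in control livers. It differed by 0.0504 ± 0.00893 (SE, n = 4 per group, limma adjusted p = 0.137), and passed under median centring (limma adjusted p = 0.0105) and quantile normalization (0.0301) but not under the Hamp-free one. Pam, which amidates adrenomedullin and other peptides, differed by 0.000356 ± 7.68e-05 (limma adjusted p = 0.196), or by 0.000976 under quantile normalization and 0.000573 under the Hamp-free one. Ramp1 and Ramp3, the other RAMP genes, were picked out after their values were seen. Ramp1 differed by 0.000163 ± 3.85e-05 (limma adjusted p = 0.226) without overlap, and Ramp3, whose mean lies below the 25th percentile, by -1.36e-06 ± 3.91e-06 (limma adjusted p = 0.941).

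In the rest of the RGS family 10 of 14 had the higher mean, with a median standardised difference of 0.463. Rgs2, a regulator of constrictor signals through Gq, read 7.07387, 7.07371, 7.07343 and 7.07355 in iron-deficient livers, against 7.07289, 7.07294, 7.07274 and 7.07271 in control livers. The groups did not overlap and the difference was 0.000823 ± 0.000105 (SE, n = 4 per group, limma adjusted p = 0.0735). Rgs18, known from platelets and blood cells, differed by 0.000782 ± 0.000245 (limma adjusted p = 0.33), or by 0.000492 under Hamp-free quantile normalization. Other connexins had 8 of 10 with the higher mean, led by Gja4, the endothelial connexin Cx37, at 2.03e-05 ± 4.87e-06 (limma adjusted p = 0.232) and Gjc1, connexin Cx45, at 1.73e-05 ± 5.01e-06 (limma adjusted p = 0.296), which was -2.21e-05 under either quantile normalization. The Gja4 difference was 0.000394 under quantile normalization, 0.000224 under the Hamp-free one and 7.09e-05 under median centring.

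Partners of Tie2 and VE-PTP had 8 of 12 with the higher mean. Tek, which encodes Tie2, differed by 3.04e-05 ± 7.66e-06 (SE, n = 4 per group, limma adjusted p = 0.248) and Ctnnb1, beta-catenin of junctions and Wnt signalling, by 4.32e-05 ± 1.05e-05 (limma adjusted p = 0.236). Neither gene's groups overlapped as deposited. The Ctnnb1 difference was 0.00188 under quantile normalization, where it passed (limma adjusted p = 3.58e-12), 0 under the Hamp-free one and 9.38e-05 under median centring. That of Tek was 0.000367, 0.000244 and 8.1e-05 under the same 3 scalings. Among vasodilator signals 17 of 36 had the higher mean, with Kcnj8 and Abcc9, the pore and sulphonylurea receptor of the vascular KATP channel, at the top. Kcnj8 read 7.07305, 7.07326, 7.07245 and 7.07320 in iron-deficient livers, against 7.07169, 7.07158, 7.07170 and 7.07212 in control livers, with a difference of 0.00122 ± 0.00021 (limma adjusted p = 0.134). Abcc9 read 8.9043, 8.9038, 8.9016 and 8.9029 in iron-deficient livers, against 8.8991, 8.9007, 8.9017 and 8.9001 in control livers, with a difference of 0.00279 ± 0.000767 (limma adjusted p = 0.276). As for Rgs5, iron-deficient replicate 3 was the lowest of its group in both. Vasoconstrictor signals had 20 of 33 with the higher mean. Adra2b, an alpha-2 adrenergic receptor, differed by 2.16e-05 ± 5.42e-06 (limma adjusted p = 0.248) and Agt, the angiotensin precursor made by hepatocytes, by -5.88e-05 ± 1.81e-05 (limma adjusted p = 0.318), and both turned sign under quantile normalization, to -9.16e-05 and 0.00637. Agt passed there (limma adjusted p = 4.1e-15), and its difference was 0 under Hamp-free quantile normalization and -8.18e-06 under median centring.

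**Figure D3:**
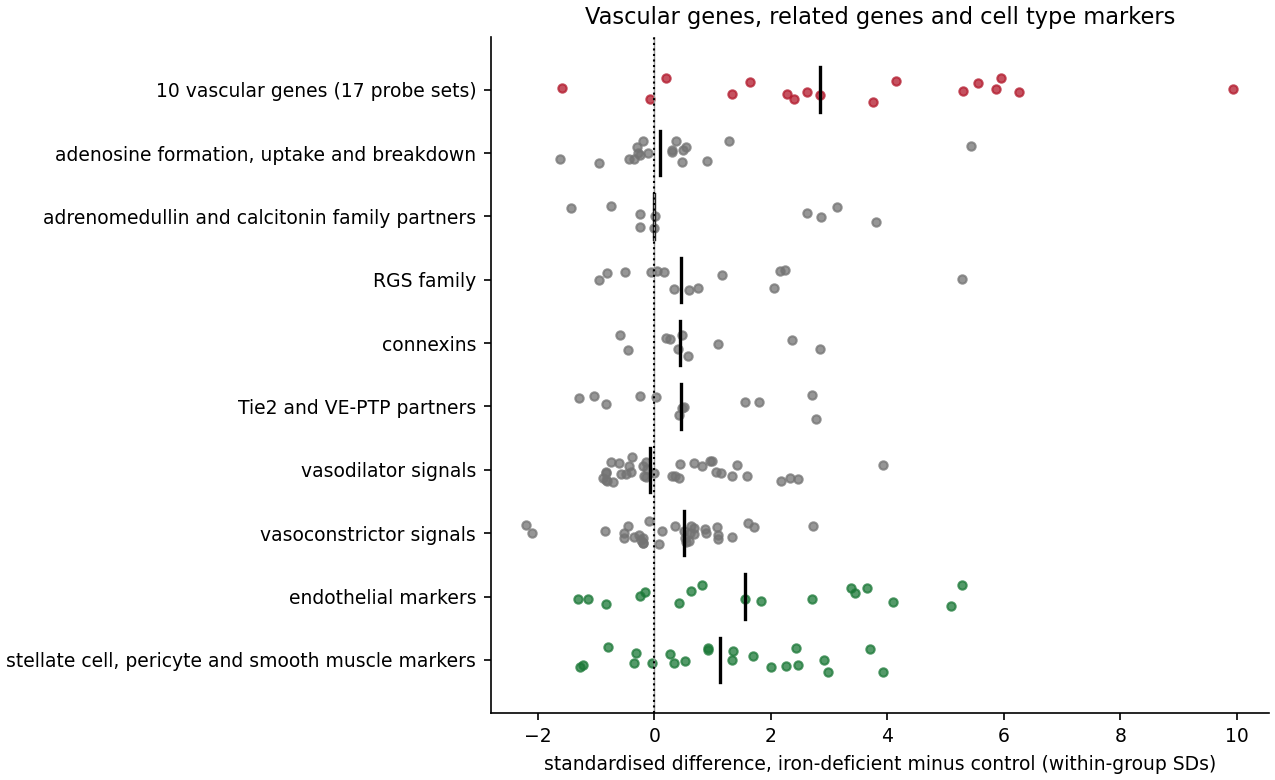
Standardised difference, iron-deficient minus control, in within-group SDs (x axis) for the 17 probe sets of the 10 vascular genes, the genes of 7 related lists and 2 sets of cell type markers; each point is 1 probe set or gene, the black bar is the median of the list and the dotted line the median over all probe sets. As deposited, the 17 probe sets of the 10 genes, which were picked from this contrast, have a median of 2.85. With 1 probe set per gene, endothelial markers have 1.56 and stellate cell, pericyte and smooth muscle markers 1.13. The 7 related lists, also with 1 probe set per gene, lie between -0.0661 and 0.518.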

How the data were processed

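Biotin-labelled RNA of 8 livers, 4 per diet, was hybridised to Affymetrix rat arrays, per the labels. The authors deposited 1 log2 value per probe set and array, a scale read from the values (5.32 to 16.1); the summarisation and normalization are not given in the sources used here. Array medians lay between 7.11951 and 7.1205. Of 31099 probe sets, 57 controls were left out. Of the rest, 20826 had 1 symbol, 436 several and 9780 none, and 20758 were matched to current symbols by gene identifier. The probe sets of the 10 genes were read from a limma 3.58.1 fit (lmFit and eBayes, R 4.3.3) of iron-deficient minus control over 31042 probe sets, with Benjamini-Hochberg adjustment at 0.05 and no replicate block. Depth has no counterpart on arrays, and 4 arrays per group limit the precision.

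The genes, lists and tests were chosen with earlier results of these data known. Named were all 10 genes, list genes past 0.05 or otherwise the 2 per list with the largest absolute moderated t, and the 3 genes most like the Adora2a probe set with the higher mean. Slide and scan batches were not analysed here. Alternatives were 2 quantile normalizations, median centring, a filter on the dimmest 25% of probe sets, other variance models, a replicate block, gene means and each array left out.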

Additional observations from a re-analysis of the deposited data

Results flagged for a closer look

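Of 62 groups of 4 arrays examined, 3 held an array whose gap to its nearest neighbour exceeded the share of the group's range that Dixon's test allows, and chance alone does so in about 5% of groups. For Adora2b control replicate 4 read 7.044961, where the other control arrays read 7.044514 to 7.044585. For Adm the same control animal read 7.10131, where the others read 7.101299 to 7.101301. For Rgs5 iron-deficient replicate 3 read 7.152951, where the other iron-deficient arrays read 7.154803 to 7.155172. Each of these arrays takes part where its gene's diets overlap or touch. The array on the other side was iron-deficient replicate 2 for Adora2b, control replicate 4 for Rgs5 and iron-deficient replicate 1 for Adm.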

How the results depend on the processing

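Of all probe sets, 10 passed as deposited, 1093 under quantile normalization, 83 under Hamp-free quantile normalization, 63 under median centring and 1 with the replicate block. With 1 array left out the count was from 4 to 27, and it moved by over 1.5 times without iron-deficient replicates 2 (5), 3 (27) or 4 (4) or control replicates 2 (6) or 3 (4). Of the 133 related genes, 0 passed as deposited, 10 under quantile normalization, 1 under median centring (Ackr3) and 2 with averaged probe sets per gene (Slc28a2 and Rgs2, limma adjusted p = 0.0489 and 0.0476). With 1 array left out the count was 0 or 1, the 1 being Crcp without iron-deficient replicate 1. The fit with averaged probe sets adjusted over genes and not over all probe sets. Its Slc28a2 difference was 0.000181, as in the main fit. Neither Slc28a2 nor Rgs2 passed under the 3 scalings. Among the 14 related genes named by the rule, the differences that turned sign were Adra2b, -9.16e-05 under quantile normalization and -0.000255 under Hamp-free quantile normalization, Gjc1, -2.21e-05 under both, Enpp1, 3.47e-05 under quantile normalization, and Agt, 0.00637 under quantile normalization. The probe sets of the 10 genes that turned sign are given beside their values in the results. The cause was not tested. Same-numbered arrays of the 2 diets correlated in their deviations from the group means by -0.111 to 0.0245, so they showed no shared deviation. Whether the animals were paired in another way cannot be told from these values. The counts of the 10 genes' probe sets without overlap and past the threshold were recomputed as choices made after seeing the data.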

Other observations

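Within the iron-deficient group, replicate 4 was the highest array for 11 of the 17 probe sets and the lowest for 0, while replicates 2 and 3 were each the lowest for 7. Within the control group, replicate 4 was the highest for 8 and replicate 2 the lowest for 8.

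The genes whose values over the 8 arrays were most like those of Adora2a probe set 1368301_at were Alox15, a lipoxygenase, Acer2, a ceramidase, and Adam23, of the ADAM membrane protein family. Pearson's r was 0.979, 0.976 and 0.976, and Spearman's rho 0.905, 0.905 and 0.881. With each array expressed as its deviation from its diet's mean, r was 0.762, 0.669 and 0.625. The 8 arrays share the 2 diets, so these values are a description of likeness over 8 arrays with no test. The genes were picked for the highest Pearson's r in a search of all named genes. Probe set 1368301_at was used as the Adora2a probe set with the higher mean. Its difference between the diets turned sign under both quantile normalizations.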
